A study of Mus musculus with 54 samples.

Results

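The transcripts of 6 mouse genes that shorten the life of messenger RNA were followed across 27 arrays: Zfp36, Zfp36l1, Zfp36l2, Zc3h12a, Btg1 and Btg2. They are 6 of the 19938 genes read from gene-level probe sets annotated with exactly 1 symbol. Each of the 6 had 1 such probe set, so the rule of taking the brightest over 27 arrays, the only measured value by which probe sets were selected, made no choice. The genes themselves were chosen by name with earlier results of these data known, so the counts among them are descriptions of these genes and not independent evidence.

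All arrays came from Ba/F3-gp130 cells, a mouse cell line labelled as pro-B that carries gp130, the signalling chain shared by receptors of the interleukin-6 family. The cells lived on 10 ng/ml Hyper-IL-6, a designed fusion protein of interleukin-6 and its receptor, and in every group they were rinsed and kept without serum for 3 h before the experiment. Parental cells, labelled untransfected, were left unstimulated, given 50 µl/ml of the perfluorocarbon emulsion GFP-PFC for 1 h, or given 100 ng/ml Hyper-IL-6 for 1 h. A further 3 lines carry constructs of a Cargo Internalization Receptor (CIR-1, CIR-2, CIR-3) and were measured unstimulated and after the emulsion. The arrays were made to see what the constructs do to the cells as a whole, and Hyper-IL-6 served as the positive control. Each of the 9 groups held 3 arrays, numbered 1, 3 and 5 when unstimulated and 2, 4 and 6 when stimulated. The labels do not say whether these came from separate cultures, so p-values measure the spread between arrays, which may be technical. They also do not say whether a CIR line is 1 clone or a pool, and they name no arm with a liquid free of emulsion.

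Zfp36 (tristetraprolin), Zfp36l1 and Zfp36l2 are zinc finger proteins that bind AU-rich stretches in messenger RNAs, many of them encoding cytokines and growth regulators, and bring the CCR4-NOT complex that removes the poly(A) tail. In early B-lineage cells Zfp36l1 and Zfp36l2 are known for holding back the cell cycle while antigen receptor genes are rearranged. Zc3h12a (Regnase-1) cuts stem-loops in transcripts such as that of Il6. Btg1 and Btg2 are antiproliferative proteins that join poly(A)-binding protein to the deadenylases of CCR4-NOT and so speed tail removal. Zfp36 and Btg2 are textbook early response genes, whose own transcripts appear and vanish within hours of a stimulus.

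The promoters of the 3 genes that rose after Hyper-IL-6 are shown because these are the members that passed the test in that comparison. Each sequence holds the 250 bases before the transcription start, read 5′ to 3′ on the gene's own strand, from RefSeq on GRCm38.p6. Capitals mark matches to 5 motifs searched on both strands: the STAT site TTCNNNGAA, the CRE TGACGTCA, the EGR site GCGNGGGCG, the CArG box and the NF-kB site. Positions count back from the start.
Zfp36, chr7:28379229-28379478, minus strand: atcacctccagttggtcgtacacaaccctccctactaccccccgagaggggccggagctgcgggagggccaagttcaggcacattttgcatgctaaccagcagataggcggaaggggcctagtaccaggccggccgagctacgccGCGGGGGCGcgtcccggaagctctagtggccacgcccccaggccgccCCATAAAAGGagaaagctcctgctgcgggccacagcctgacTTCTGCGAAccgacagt
Btg2, chr1:134079156-134079405, minus strand: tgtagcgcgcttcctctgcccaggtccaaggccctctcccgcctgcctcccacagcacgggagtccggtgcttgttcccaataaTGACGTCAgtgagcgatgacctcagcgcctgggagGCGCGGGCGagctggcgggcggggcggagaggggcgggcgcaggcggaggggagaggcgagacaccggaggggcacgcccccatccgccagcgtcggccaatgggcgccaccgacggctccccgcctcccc
Zfp36l1, chr12:80113014-80113263, minus strand: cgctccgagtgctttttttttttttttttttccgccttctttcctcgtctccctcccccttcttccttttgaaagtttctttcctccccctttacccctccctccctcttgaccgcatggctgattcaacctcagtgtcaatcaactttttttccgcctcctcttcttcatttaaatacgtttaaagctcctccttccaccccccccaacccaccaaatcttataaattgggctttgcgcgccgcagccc
The Zfp36 window held the STAT letters at -17 to -9, a CArG box at -58 to -49 and an EGR match at -105 to -97. Among 32851 promoters of the same length, 7.02% held the STAT letters, 1.47% a CArG box and 4.7% an EGR match. In Btg2 the CRE stood at -166 to -159, a motif found in 1.55% of promoters, and an EGR match at -131 to -123. None of these overlapped another. The windows of Zfp36l1, Zc3h12a and Btg1 held none of the 5 motifs (the NF-kB site stood in 3.9% of promoters), and Zfp36l2 had no entry. A match is a description of letters and not a site shown to be used.

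Values below are the deposited signals, taken as log2, and each difference is on the log2 scale. A gene passed, and is said to have risen or fallen, where its Benjamini-Hochberg adjusted p in limma was under 0.05. Array medians ran from 7.521 to 7.646 and lower quartiles from 6.218 to 6.311, so all 6 genes had means above the array medians. Of 9 measured pro-B markers only Cd79a, Cd79b and Ptprc had a mean above every array median. Pax5, Vpreb1, Igll1, Rag1 and Blnk did not, and Ebf1 lay below the lower quartiles, so the labelled cell type was only partly borne out by its markers. By the mean over 27 arrays, 2 of 6 mast cell and basophil markers lay above every array median (Gata2 and Ms4a2). So did 0 of 5 T cell, 2 of 6 myeloid (Mpo and Elane) and 3 of 3 erythroid markers (Gata1, Klf1 and Epor). By that mean Fcer1a, Mcpt8 and Kit did not, and Cpa3 lay below the lower quartiles. Group means of Fcer1a, however, ran from 4.87 to 9.37, and those of Mpo from 8.87 to 11.43. The mast cell list mean was 8.14 in unstimulated parental cells and 7.67 over the unstimulated groups of all 4 lines. The latter includes the parental group, so the mean over the CIR lines alone was lower still. The mean marker levels of each blood cell type moved little with Hyper-IL-6: the pro-B mean was 8.08 in unstimulated and 8.04 in treated parental cells, the mast cell mean 8.14 and 8.09, the T cell mean 6.85 and 6.80, the myeloid mean 7.91 and 7.91 and the erythroid mean 9.54 and 9.48. Socs3, the feedback inhibitor that gp130 switches on, rose by 3.06 after Hyper-IL-6 (SE 0.28, adjusted p = 2.2e-07) and differed by 0.01 after GFP-PFC over 4 lines. In bulk RNA, a change in every cell and a change in some of the cells cannot be told apart.

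Hyper-IL-6 raised 3 of the 6 transcripts in parental cells within 1 h, namely Zfp36, Zfp36l1 and Btg2, against 0.777% of all genes called in either direction and 0.737% called higher. Zfp36 rose 7.83-fold, Zfp36l1 3.11-fold and Btg2 1.87-fold. For each of the 6 genes the 3 treated arrays lay above the 3 unstimulated arrays, an order found in 4.85% of all genes. The median difference was 0.71 over the 6 genes and -0.01 over all genes.

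Zfp36 read 8.56, 8.48 and 8.38 on unstimulated parental arrays 1, 3 and 5 and 10.50, 11.91 and 11.92 on Hyper-IL-6 arrays 2, 4 and 6. Array 2 was thus well below its companions yet far above the unstimulated range. The difference was 2.97 (SE 0.28, 95% interval 2.40 to 3.54, adjusted p = 3.3e-07 in limma), and the fold lay between 5.28 and 11.6. It ranked eleventh by p among all genes.

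Zfp36l1, its paralogue, read 9.57, 9.46 and 9.55 unstimulated and 10.77, 11.43 and 11.29 after Hyper-IL-6. The groups stood more than 1 unit apart, again with array 2 the lowest of the treated. The rise was 1.64 (SE 0.16, 95% interval 1.32 to 1.96, adjusted p = 4.5e-07), a fold between 2.49 and 3.89.

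Zfp36l2 was bright in every group and showed a smaller difference. Its arrays read 12.19, 12.60 and 12.82 unstimulated and 12.90, 13.15 and 13.15 after Hyper-IL-6. The groups did not overlap, but array 5 came within 0.1 of array 2. The difference of 0.53 (SE 0.20, 95% interval 0.11 to 0.94) did not pass (adjusted p = 0.51). It passed at 0.44 without the arrays numbered 1 and 2 (adjusted p = 0.0078). It also passed at 0.42 with array weights, a fit that counts noisier arrays less (adjusted p = 0.046). In these fits 18.4% and 17.4% of all genes passed, against 0.777% above. Of 15 alternatives 12 gave no call for Zfp36l2.

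Zc3h12a, the endonuclease, read 8.33, 8.12 and 8.13 unstimulated and 8.34, 8.42 and 8.52 with Hyper-IL-6. Unstimulated array 1 and treated array 2 were nearly level. The difference was 0.24 (SE 0.076, 95% interval 0.08 to 0.39, adjusted p = 0.30). Without the arrays numbered 1 and 2 it was 0.34 and passed (adjusted p = 0.014), as did 18.4% of all genes. It also passed with array weights (0.29, adjusted p = 0.0042), as did 17.4% of all genes. The other 13 of 15 alternatives gave no call for Zc3h12a.

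Of the deadenylase partners, Btg2 passed and Btg1 did not; the difference between them was not tested. Btg1 read 11.06, 11.07 and 11.00 unstimulated and 11.18, 11.23 and 11.36 treated, a difference of 0.21 (SE 0.090, 95% interval 0.02 to 0.39) that did not pass (adjusted p = 0.64). Btg2 read 9.18, 9.40 and 9.06 unstimulated and 9.52, 10.44 and 10.37 treated. Its array 2 stood only slightly above unstimulated array 3, whereas arrays 4 and 6 lay about 1 unit higher. The rise of 0.90 (SE 0.20, 95% interval 0.49 to 1.31, adjusted p = 0.023) depended on single arrays, and the call ended when only the 6 compared arrays were fitted (adjusted p = 0.45). It also ended without unstimulated array 1 (0.063) or 5 (0.12) and without Hyper-IL-6 array 4 (0.30) or 6 (0.25), all adjusted p. The other 10 of 15 alternatives kept the call, among them the exon-level values (0.94, adjusted p = 0.017).

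**Figure D1:**
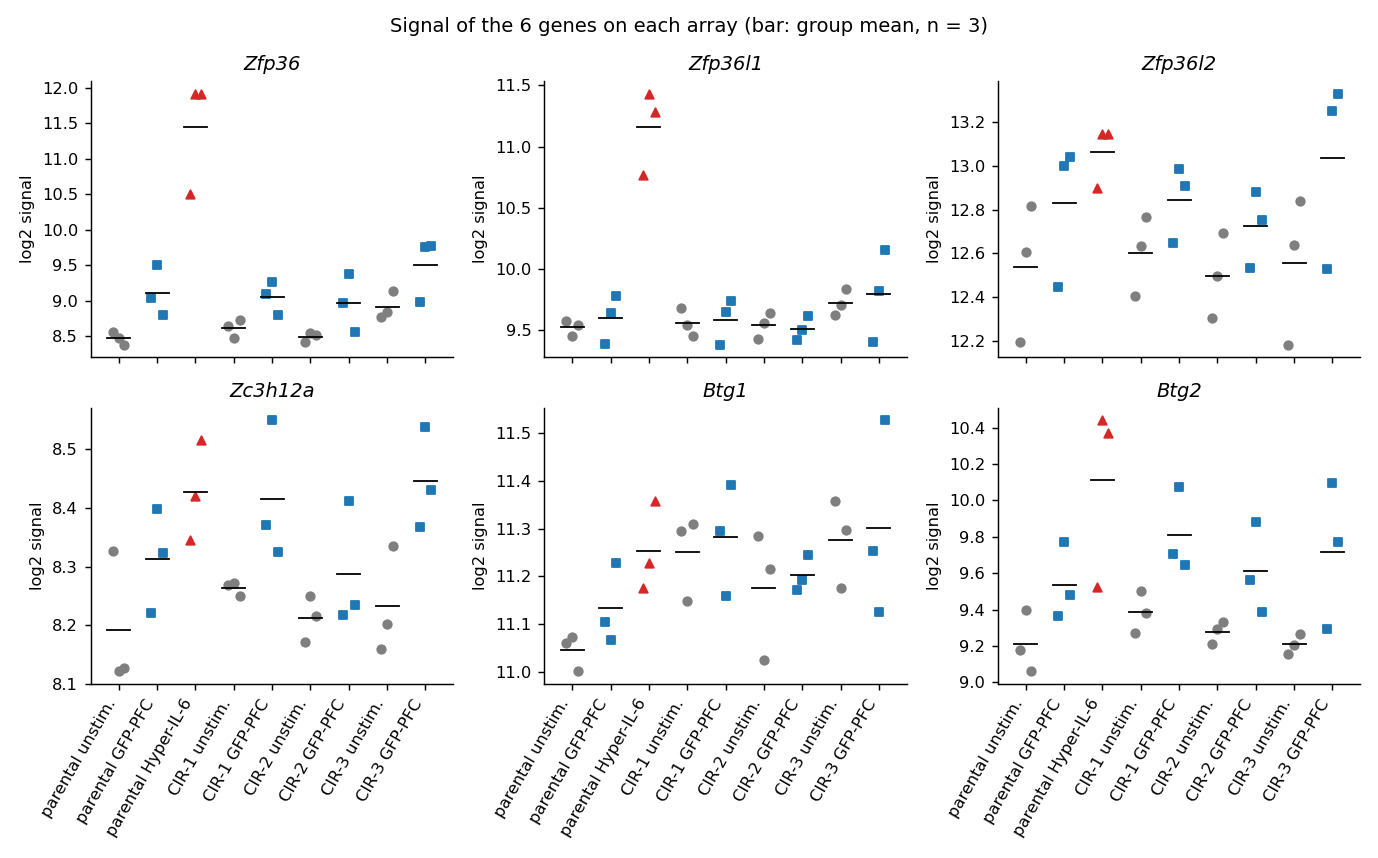
Log2 signal of the 6 genes (y axis, scaled per panel) on every array of the 9 groups (x axis), with a bar at each group mean of 3 arrays. Zfp36 and Zfp36l1 stand apart after Hyper-IL-6, where Zfp36 lies between 10.50 and 11.92, while the other 24 arrays of that gene lie between 8.38 and 9.77.

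Hyper-IL-6 array 2 was the lowest of its 3 for all 6 genes, which was so for 28.2% of all genes. Leaving out the lowest array can only enlarge a difference. Without it the differences were 3.44 for Zfp36, 1.83 for Zfp36l1 and 1.20 for Btg2, and all 3 passed. Socs3 was also lowest there (12.54 against 12.98 and 13.01). The part of that array in the spread was not tested further.

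The emulsion gave smaller and less certain differences. Averaged over the 4 lines, GFP-PFC minus unstimulated passed for 0 of the 6 genes in limma, while 44 of all genes passed (0.221%) and 1257 (6.30%) had an unadjusted p under 0.05. Btg2, Zfp36, Zc3h12a and Zfp36l2 were among those 1257. In the fit that blocks arrays by round (numbers 1 and 2, 3 and 4, 5 and 6), 3 of the 6 passed, all higher: Zfp36l2, Btg2 and Zfp36, against 0.757% of all genes. The median difference was 0.23 over the 6 genes and -0.01 over all genes.

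Zfp36 read 9.04, 9.50 and 8.81 on parental GFP-PFC arrays 2, 4 and 6, above the 3 unstimulated values. In CIR-1 it read 8.64, 8.47 and 8.73 unstimulated and 9.10, 9.26 and 8.80 with emulsion, and in CIR-2 it read 8.42, 8.55 and 8.52 against 8.97, 9.37 and 8.56. These groups were separate too, though array 6 of each line came close to the unstimulated range. CIR-3 had the highest resting values, 8.77, 8.84 and 9.13, and reached 8.98, 9.76 and 9.77, with overlap. The mean difference was 0.53 (SE 0.14, 95% interval 0.25 to 0.82, adjusted p = 0.15), and the adjusted p was 0.049 with the replicate block.

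Btg2 read 9.36, 9.77 and 9.48 on parental GFP-PFC arrays, overlapping the unstimulated group at array 3. In CIR-1 it went from 9.27, 9.50 and 9.38 unstimulated to 9.71, 10.07 and 9.65, and in CIR-2 from 9.21, 9.29 and 9.33 to 9.56, 9.88 and 9.39. CIR-3 gave 9.16, 9.21 and 9.26 unstimulated and 9.29, 10.09 and 9.77 with emulsion. All 3 CIR lines thus had separate groups, with array 4 the highest in each. The mean difference over 4 lines was 0.40 (SE 0.098, 95% interval 0.19 to 0.60, adjusted p = 0.12; 0.0053 with the block).

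Zfp36l2 groups overlapped in every line, and the array numbered 1 or 2 was the lowest of each group. Its parental arrays read 12.45, 13.00 and 13.04 with emulsion, and its CIR-3 arrays 12.18, 12.64 and 12.84 unstimulated and 12.53, 13.25 and 13.33 with it. Compared round by round, each emulsion array lay above the unstimulated array before it. The mean difference was 0.31 (SE 0.10, 95% interval 0.10 to 0.52, adjusted p = 0.39), and with the block its SE fell to 0.047 and the adjusted p was 9.2e-04.

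The other 3 genes gave less. Zc3h12a differed by 0.14 (SE 0.038, adjusted p = 0.19; 0.077 with the block), with separate groups in CIR-1 and CIR-3. Zfp36l1 differed by 0.04 (95% interval -0.12 to 0.20) and Btg1 by 0.04 (95% interval -0.05 to 0.14). Zfp36l1 ranged from 9.38 to 10.16 over the 24 arrays without Hyper-IL-6, and its 8 group means spanned 0.28.

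**Figure D2:**
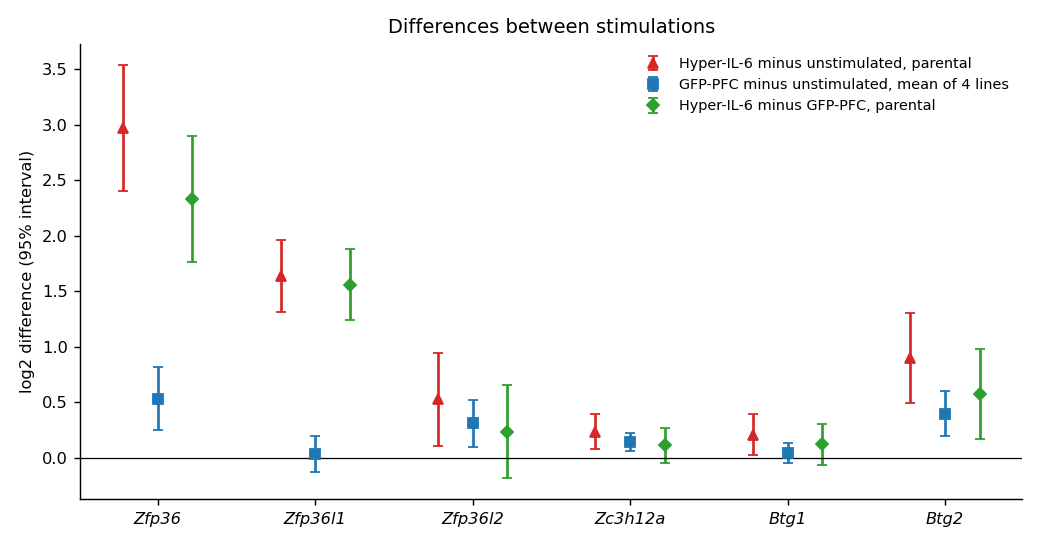
Log2 difference (y axis) of each gene (x axis) in 3 comparisons, with 95% intervals from the fit to 27 arrays. Zfp36l1 shows 1.64 for Hyper-IL-6 beside 0.04 for GFP-PFC, whereas the Zfp36l2 intervals of the 3 comparisons overlap.

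Within consecutive pairs of the same line, GFP-PFC was higher in 12 of 12 pairs for Zfp36, Zfp36l2 and Btg2, an outcome found in 1.33% of all genes. Zc3h12a was higher in 11 of 12, Btg1 in 8 and Zfp36l1 in 6. The pair differences of Zfp36 ran from 0.05 to 1.02 with a median of 0.52, and the arrays numbered 3 and 4 gave the largest in every line. For Btg2 they ran from 0.05 to 0.89 with a median of 0.40, and for Zfp36l2 from 0.06 to 0.61 with a median of 0.30.

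**Figure D3:**
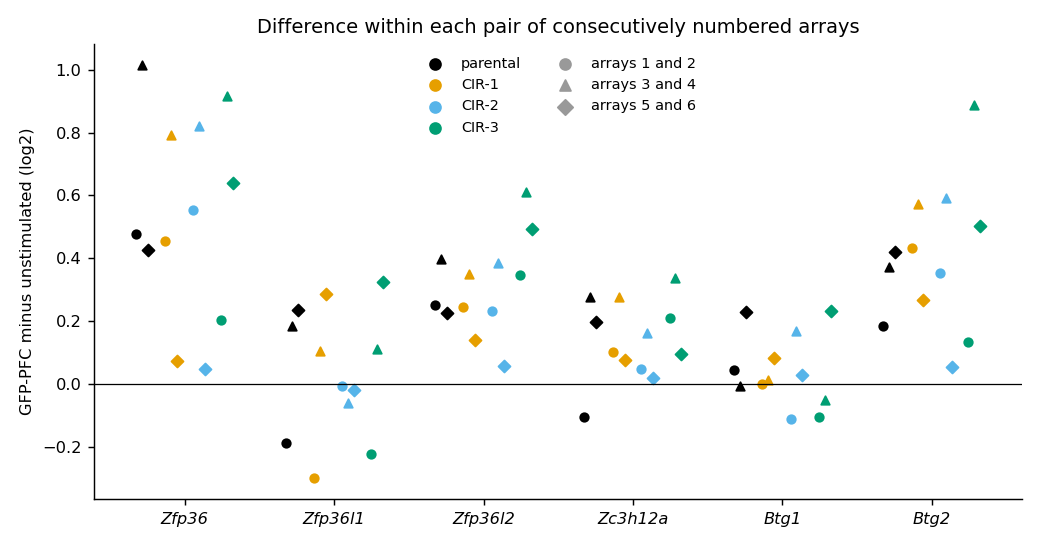
GFP-PFC minus unstimulated on the log2 scale (y axis) within the 12 pairs of consecutive array numbers for each gene (x axis), coloured by line and shaped by round. All 12 points lie above 0 for Zfp36, Zfp36l2 and Btg2, and 6 of 12 do for Zfp36l1.

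In single lines, 0 of the 6 genes passed for GFP-PFC, and limma called 0 of all genes in each line (0.00%). At an unadjusted p under 0.05 parental cells gave Zfp36 (781 of all genes, 3.92%), CIR-1 gave Btg2 (491, 2.46%), CIR-2 none of the 6 (263, 1.32%) and CIR-3 gave Zfp36, Zfp36l2, Zc3h12a and Btg2 (427, 2.14%). With the replicate block 0 of the 6 passed in a single line, and an unadjusted p under 0.05 was reached by Zfp36, Zfp36l2 and Btg2 in parental cells (5.67% of all genes), by Zfp36l2, Zc3h12a and Btg2 in CIR-1 (3.43%), by Zfp36l2 and Btg2 in CIR-2 (2.04%) and by Zfp36, Zfp36l2, Zc3h12a and Btg2 in CIR-3 (3.17%). Emulsion arrays lay wholly above the unstimulated ones for Zfp36 in parental cells (2.02% of all genes), for Zfp36, Zc3h12a and Btg2 in CIR-1 (1.92%), for Zfp36 and Btg2 in CIR-2 (2.99%) and for Zc3h12a and Btg2 in CIR-3 (2.56%). The parental Zfp36 difference was 0.64, and those of the CIR lines, taken by number, were 0.44, 0.47 and 0.59. The Btg2 difference was 0.32, 0.42, 0.33 and 0.51 in that same order, and that of Zfp36l2 was 0.29, 0.24, 0.22 and 0.48. An F-test of whether the emulsion difference varied among the lines called 0 of the 6 and 0 of all genes (0.00%; 188 at an unadjusted p under 0.05), and the 6 unadjusted p-values lay between 0.64 and 0.96. Absence of a call there does not show that the lines respond alike.

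Hyper-IL-6 and GFP-PFC were also set against each other in parental cells; both differences from rest use the same 3 unstimulated arrays. Zfp36 (2.33, SE 0.28, adjusted p = 2.0e-05) and Zfp36l1 (1.56, SE 0.16, adjusted p = 1.1e-06) were higher with Hyper-IL-6, 2 of the 6 against 0.512% of all genes called in either direction and 0.497% called higher. Btg2 was 0.58 higher (95% interval 0.17 to 0.98, adjusted p = 0.49; 0.053 with the block), and its groups overlapped. It passed without Hyper-IL-6 array 2 (0.87, adjusted p = 0.011). That array was the lowest of its 3 for all 6 genes, so leaving it out could only enlarge the difference. For Zfp36l2 the difference was 0.23 (95% interval -0.18 to 0.65), for Zc3h12a 0.11 and for Btg1 0.12, all with overlapping groups. Side by side, the parental differences from rest were 2.97 for Hyper-IL-6 and 0.64 for GFP-PFC in Zfp36, 1.64 and 0.08 in Zfp36l1, 0.53 and 0.29 in Zfp36l2, 0.24 and 0.12 in Zc3h12a, 0.21 and 0.09 in Btg1, and 0.90 and 0.32 in Btg2.

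The CIR constructs went with no passing difference in any of the 6 genes. Set against parental cells at rest, 0 of the 6 were called by limma in any CIR line, where the share of all genes called was 1.73%, 1.21% and 1.48% from CIR-1 to CIR-3. Under GFP-PFC 0 of the 6 were called too, against 1.64%, 1.18% and 1.24%. Between the CIR lines at rest, 0 were called, against 0.416% for CIR-2 minus CIR-1, 1.18% for CIR-3 minus CIR-1 and 0.767% for CIR-3 minus CIR-2. Among these 9 comparisons only unstimulated Btg1 had an unadjusted p under 0.05, in CIR-1 (0.21, 95% interval 0.02 to 0.39, adjusted p = 0.46; 1726 of all genes at that p) and CIR-3 (0.23, adjusted p = 0.28; 2394 of all genes). Blocking by round in limma added Btg1 under GFP-PFC in CIR-1 (unadjusted p = 0.045) and CIR-3 (0.025). It also added Zfp36l2 under GFP-PFC in CIR-3 (0.040). None passed with the block, and unstimulated Btg1 in CIR-3 came nearest (adjusted p = 0.078), where 3.30% of all genes passed. The largest difference was that of Zfp36 in unstimulated CIR-3, 0.44. Its interval of -0.13 to 1.01 leaves room for a rise of up to 1 unit. An F-test over the 4 unstimulated groups called 562 genes (2.82%) and 0 of the 6, with Btg1 the nearest (adjusted p = 0.54).

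By level, parental Hyper-IL-6 stood first of the 9 groups for Zfp36 (11.44 ± 0.82, SD, n = 3), Zfp36l1 (11.16 ± 0.35), Zfp36l2 (13.06 ± 0.14) and Btg2 (10.11 ± 0.51). Only for Zfp36 and Zfp36l1 did it clear the next group, CIR-3 with emulsion, without overlap, by 1.94 and 1.37. Zfp36 then ran down through the 4 emulsion groups (9.50, 9.11, 9.05 and 8.97 for CIR-3, parental, CIR-1 and CIR-2) to the 4 unstimulated ones (8.92, 8.61, 8.50 and 8.47 for CIR-3, CIR-1, CIR-2 and parental). Of these lower neighbours only unstimulated CIR-3 and CIR-1 did not overlap. Zc3h12a and Btg1 were highest in CIR-3 with emulsion (8.45 ± 0.09 and 11.30 ± 0.21). Their group means spanned 0.25 and 0.26 over the 8 groups without Hyper-IL-6, against 1.03 for Zfp36, 0.60 for Btg2 and 0.54 for Zfp36l2.

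Several of these genes also varied with the number of the array inside the groups. Zfp36l2 was lowest on the array numbered 1 or 2 in 9 of 9 groups, which held for 1.66% of all genes, with a mean deviation of -0.28 from the group mean. Btg2 was highest on the array numbered 3 or 4 in 7 of 9 groups (mean deviation 0.20), and Zc3h12a in 6 of 9. Zfp36l1 was lowest on 1 or 2 in 7 of 9 and highest on 5 or 6 in 6 of 9, and Btg1 was highest on 5 or 6 in 6 of 9. Zfp36 was highest on 3 or 4 and on 5 or 6 in 4 groups each. The share of all genes with such counts was not computed, so they do not set these genes apart. What the rounds share is not stated in the labels, and their part in the results was not tested beyond the block and the fits without arrays 1 and 2.

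**Figure D4:**
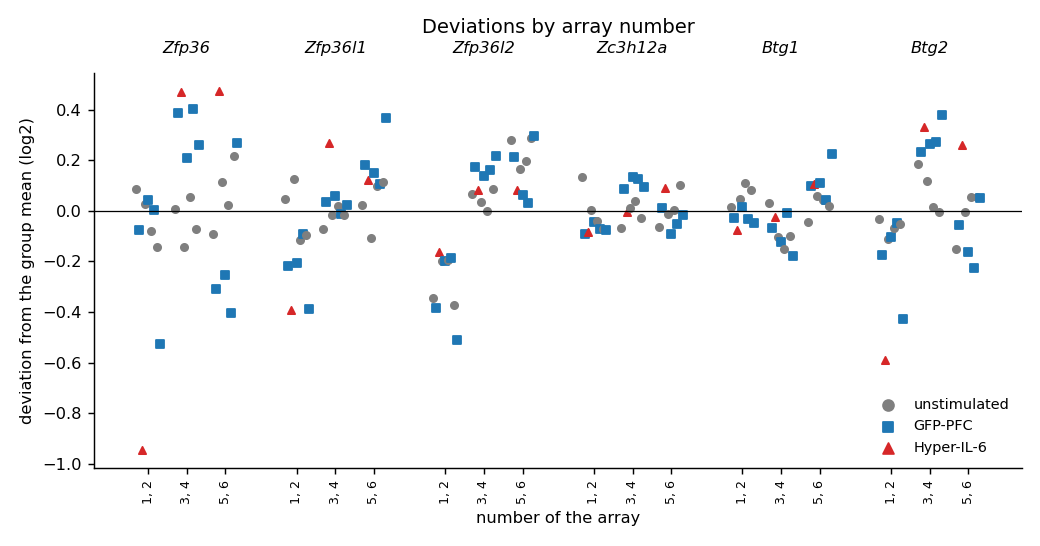
Deviation of each array from its group mean on the log2 scale (y axis) by array number within each gene (x axis). Every Zfp36l2 array numbered 1 or 2 lies below 0, and the lowest point of the plot is Zfp36 on Hyper-IL-6 array 2.

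The exon-level values gave a second reading of the same arrays. Of the 2 Zfp36 probe sets, the bright one differed by 3.21 after Hyper-IL-6 and 0.64 after GFP-PFC, while the other, at a mean of 6.63 below the lower quartile of that level, differed by 0.72 and -0.04. Their average gave 1.97 for Hyper-IL-6 and 0.30 for GFP-PFC, well below the gene-level values. The 4 Zfp36l1 probe sets above that quartile differed by 1.41 to 1.75 after Hyper-IL-6, and the 3 of Zfp36l2 by 0.39 to 0.61. Both Btg2 probe sets were higher (0.76 and 1.12), and both Btg1 probe sets were close to rest (0.11 and 0.20). The 8 Zc3h12a probe sets ran from 0.05 to 0.73, apart from a single probe set at -0.43.

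**Figure D5:**
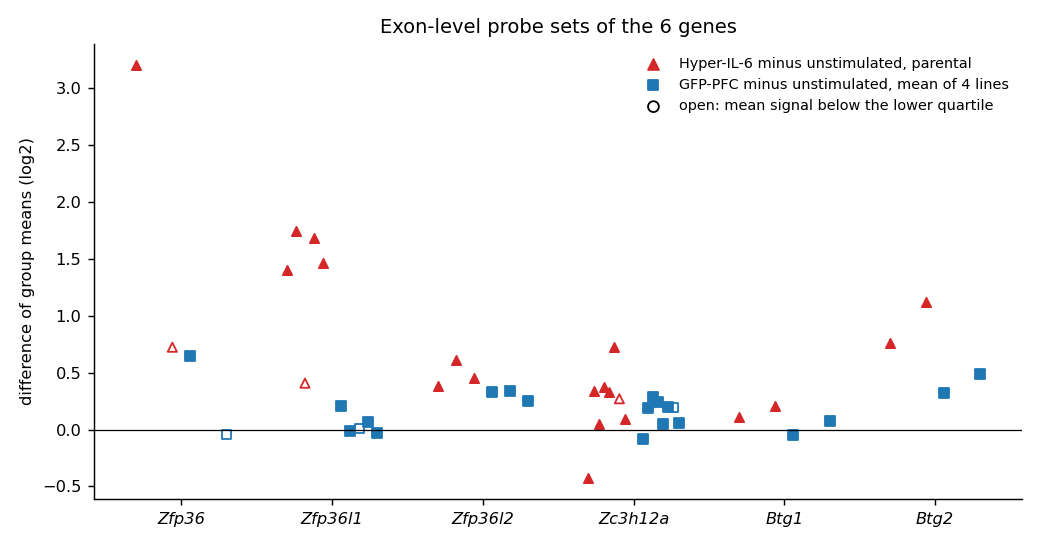
Difference of group means on the log2 scale (y axis) for each exon-level probe set of the 6 genes (x axis), for Hyper-IL-6 in parental cells and for GFP-PFC averaged over 4 lines; open symbols mark dim probe sets. The probe sets of Zfp36l1 split by brightness after Hyper-IL-6 (1.41 to 1.75 against 0.41), and a single probe set of Zc3h12a lies below 0 in both comparisons.

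Lists of genes around these proteins were read from the same fits, in which 0.777% of all genes passed for Hyper-IL-6 against rest. At that share a list of 16 or 21 genes is likely to hold no call, so a count of 0 does not set it apart. After Hyper-IL-6, 0 of 16 deadenylase genes and their cofactors and 0 of 21 decapping and exonuclease genes passed in limma, with 0 and 1 at an unadjusted p under 0.05 and median differences of -0.03 and -0.02 (all genes -0.01). Without the arrays numbered 1 and 2, 3 of the 21 decapping and exonuclease genes were higher, beside 18.4% of all genes. Array weights gave 2 higher and 1 lower of the 21, beside 17.4%. Among 7 measured relatives, Tob1, another partner of the deadenylases, rose by 0.56 (SE 0.087, adjusted p = 6.7e-04). Of these relatives 0 passed when only the compared arrays were fitted, and 2 passed without Hyper-IL-6 array 2. Of 12 other RNA-binding regulators 2 rose: Arid5a, which protects Il6 messenger RNA from Regnase-1, by 0.73, and N4bp1 by 0.44 (adjusted p = 0.026). That count was 1 without unstimulated array 3 or 5, without Hyper-IL-6 array 4 or 6, and when only the compared arrays were fitted. Of 6 genes of the p38-MK2 axis, which phosphorylates and inactivates tristetraprolin, the phosphatase gene Dusp1 rose by 1.35 (SE 0.30, adjusted p = 0.031). That call ended without any 1 of the 3 unstimulated arrays, Hyper-IL-6 array 4 or Hyper-IL-6 array 6, and when only the compared arrays were fitted.

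Of 18 short-lived transcripts known to be bound by Zfp36 or Zc3h12a, 9 rose after Hyper-IL-6 and 0 fell. Of all genes 0.777% were called. The median difference of the 18 was 0.54. This list, like those above, was chosen with earlier results of these data known. Its counts are therefore descriptions and not independent evidence. Il10 rose by 2.85, Ier3 by 2.73, Il6 by 1.89 and Ccl3 by 1.82, whereas Tnf, the best known target of tristetraprolin, was 1.11 higher with an adjusted p of 0.058. The count was 5, 4 or 6 when unstimulated array 1, 3 or 5 was left out, beside 0.813%, 0.487% and 0.607% of all genes. Leaving out Hyper-IL-6 array 2, 4 or 6 gave 10, 4 or 4, beside 1.25%, 0.396% and 0.401%. Fitting only the compared arrays gave 1, beside 0.155%. Without the arrays numbered 1 and 2, 10 were higher and 1 lower, beside 18.4% of all genes. Array weights also gave 10 higher and 1 lower, beside 17.4%. GFP-PFC over 4 lines gave Il6 (0.64, adjusted p = 0.011) and Myc (0.58, adjusted p = 0.011), 2 of 18 beside 0.221% of all genes, and 8 of the 18 had an unadjusted p under 0.05, all higher. The deadenylase-related gene Noct rose by 0.29 (adjusted p = 0.015), 1 of 16, and 0 passed in the other 4 lists, where 3 genes had an unadjusted p under 0.05 (2 relatives and 1 decapping or exonuclease gene). With the replicate block 4 of the 18 and 1 of the 7 relatives passed, beside 0.757% of all genes. Without the arrays numbered 1 and 2, 4 of the 18 passed, beside 4.73%, and with array weights 6, beside 5.37%. Each of those fits also called 1 relative and 1 decapping or exonuclease gene.

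Against GFP-PFC, Hyper-IL-6 gave higher Tob1 (0.44), 1 of 7 relatives, and higher N4bp1 (0.44) and Arid5a (0.73), 2 of 12 other RNA-binding regulators. Of the 18 short-lived transcripts 4 were higher: Il10 (2.86), Ier3 (2.45), Fos (1.69) and Il6 (1.17). In that comparison 0.512% of all genes passed, and 0 of the listed genes were lower. In the line comparisons only 3 listed genes passed: Cnot10 was lower in unstimulated CIR-2 (-0.28, adjusted p = 0.024), Mapk14 higher in CIR-1 with emulsion (0.24, adjusted p = 0.018), and Ptgs2 higher in CIR-3 with emulsion (3.31, SE 0.53, adjusted p = 4.6e-04), each against parental cells.

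Genes of like pattern were sought over the 27 arrays among 656 genes with a mean above the median and group means spanning at least 0.5. All points share the same arrays and rounds, and 3 of them are the Hyper-IL-6 arrays, so r is given as a description. Zfp36 was closest to Junb (r = 0.967), Osm (0.963) and Tiparp (0.951). Zfp36l1 was closest to Csrnp1 (0.964), Bcar3 (0.962) and Osm (0.961). The leading genes were Plekho2 (0.918), Slc2a3 (0.898) and Dusp5 (0.893) for Zfp36l2, and Mycn (0.888), Plekho2 (0.862) and Id1 (0.835) for Btg2. Lower values stood at the head for Zc3h12a (Mycn, 0.819) and Btg1 (Mmp19, 0.794). Group means ran only from 8.19 to 8.45 for Zc3h12a and from 11.04 to 11.30 for Btg1. Genes as flat as these were kept out of the candidates by the span of 0.5, so their lower r cannot be read as a trait of these genes. Between the members, r of Zfp36 with Zfp36l1 was 0.921 over 27 arrays and 0.465 when the Hyper-IL-6 arrays were left out (24 arrays), whereas r of Zfp36 with Btg2 was 0.818 and 0.770. Zc3h12a with Btg2 gave 0.813 and 0.828, and Btg1 with Btg2 only 0.190 and 0.096.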

How the data were processed

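RNA of 27 samples was measured on Affymetrix mouse arrays. Per the labels, the authors ran the core-gene and the core-exon summaries of Expression Console. Algorithm, version, normalization and log base are not given in the sources used here. The deposited values, 2.97 to 14.9 at gene level, were taken as log2 signal and kept as normalized. The number of arrays limits the precision. Of 35556 probe sets, 21789 carried 1 symbol (1621 several, 12146 none), giving 19938 genes.

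The tests used limma 3.58.1 (R 4.3.3), with 9 group means and a shared spread over 27 arrays. Moderated tests were two-sided, p-values were Benjamini-Hochberg adjusted over 19938 genes and the threshold was 0.05. The script was tested on simulated data. The 6 genes, the gene lists, the markers and the tests were chosen with earlier results of these data known. The 6 genes are named in every comparison, with passing list genes (up to 4 each) and the 3 most alike genes.

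Deviations from group means correlated positively in all 12 consecutive pairs of unstimulated and GFP-PFC arrays (r 0.282 to 0.633 across genes), in 18 same-numbered unstimulated pairs (0.137 to 0.763) and in 18 same-numbered GFP-PFC pairs (0.211 to 0.615). The numbers were therefore taken to pair these arrays. For Hyper-IL-6 against unstimulated arrays the 3 values were -0.463 to -0.201, and no pairing was taken.

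Alternatives were exon-level values, a replicate block, fewer arrays, array weights, quantile normalization, a filter on dim probe sets, every probe set alone, a trended robust variance and leaving out each array. The mean of the 3 CIR lines, the block without Hyper-IL-6 arrays and the recounts of the gene lists were added after seeing the data.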

Additional observations from a re-analysis of the deposited data

How the results depend on the processing

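Among the 6 genes, 3 passed for Hyper-IL-6 against rest, beside 0.777% of all genes. Without the arrays numbered 1 and 2 the count was 5, beside 18.4% of all genes. With array weights it was also 5, beside 17.4%. The replicate block gave 4 (adding Zfp36l2, adjusted p = 0.0020), with 326 of all genes called, though numbers did not pair these arrays; leaving out 1 array gave 2 to 3. For GFP-PFC over 4 lines 0 passed. With the replicate block 3 did (0.757% of all genes), and also 3 when the Hyper-IL-6 arrays were left out of it. The fit to the compared arrays gave 2, beside 0.296% of all genes. Without the arrays numbered 1 and 2 the count was 4, beside 4.73%, and with array weights 4, beside 5.37%. Leaving out 1 array gave 0 to 1; the 1 was Btg2 without CIR-3 GFP-PFC array 2 (0.45, adjusted p = 0.032). For GFP-PFC in parental cells 1 passed with array weights (Zfp36, 0.88, adjusted p = 0.045). Hyper-IL-6 against GFP-PFC gave 2, and 3 without the arrays numbered 1 and 2, with array weights or without Hyper-IL-6 array 2. The other 14 results gave 0 under every alternative run. The cause of the changes was not tested. Over all genes the calls ran from 31 to 3673 for Hyper-IL-6 against rest (155 as reported), from 16 to 1071 for GFP-PFC over 4 lines (44), from 0 to 1002 for GFP-PFC in parental cells (0), from 41 to 1929 between both stimulations (102) and from 27 to 3799 over the 9 line comparisons. Of 1560 recomputed values of single genes, 26 newly passed and 5 no longer did. Of 1459 that passed in neither fit, 90 changed sign, and the largest of these had a size of 0.181 in the main fit. With 3 arrays a group, small differences cannot be settled.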
